A study of Zea mays with 16 samples.

Results

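The 200 probes whose signal fell most from 1 mm to 2 mm maize anthers were taken from an Agilent array that carries 42034 maize probes. The choice was made among the 28295 probes that the scanner software marked as well above background in all 16 labeled samples. A level was the log2 of the processed signal minus the median over these 28295 probes in the same sample, so that a level of 0 is that of the median probe and a step of 1 is a 2-fold difference. For each probe the mean level of the 8 samples of 1 mm anthers was subtracted from the mean of the 8 samples of 2 mm anthers, and the 200 most negative values were kept. The members were thus chosen by the stage difference itself, which is described below without a test.

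The maize anther gains its cell layers by division early in its growth, when the cells that will become meiocytes are still dividing mitotically. As the anther lengthens, divisions in the wall layers cease, the meiocytes pass through the prophase of meiosis, and the tapetum, the wall layer next to them, takes on its secretory and nursing role. The list below holds transcripts that were higher in the shorter anthers, whatever their cell layer or pathway.

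The samples came from 2 kinds of plants grown from segregating ears. *Mu* active plants, from spotted kernels, carried an active high-copy *MuDR/Mu* transposon system with the *bz2-mu2* reporter allele. *Mu killer* plants, from bronze kernels, carried in addition the *Mu killer* locus, which silences *MuDR*, and were genotyped by PCR. The series' own description names this line only as inactive, and the arrays were scanned earlier than the season in which the methods place the plants, so that the name of the line here rests on the sample labels. Anthers of upper florets were pooled within each sample, so that the levels are averages over all cell types of the anther, and fewer cells of a type cannot be told apart from less RNA per cell. No treatment was applied. Each of 8 arrays held RNA of both lines, 1 in Cy3 and 1 in Cy5, which gave 4 replicates per line and stage.

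All 4 arrays of a stage were on the same slide, so stage and slide cannot be told apart in any value that compares 1 mm with 2 mm anthers. Ratios between the lines were taken within an array and do not have this limit. By the labels, the Cy3 and the Cy5 sample of an array would be of the same line. Here the Cy3 sample has the line of its label and the Cy5 sample the other, with *Mu killer* in Cy3 for replicates 1 and 2 and in Cy5 for replicates 3 and 4. This leaves the direction between the lines unsettled, since the reverse assignment would turn the sign of any difference between *Mu killer* and *Mu* active without changing its size. A sample had between 32697 and 37898 probes well above background. Precision is limited by the number of arrays.

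The 200 probes carried 198 distinct transcript identifiers. Of the probes, 167 (83.5%) had an identifier of an assembled transcript, which starts with TC, and 33 had that of another sequence record. Among all 28295 probes the share with a TC identifier was 73.9%. None of the 200 identifiers was in the reference gene table, and the description column of the array output was "Unknown" throughout, so the probes are given by identifier without gene names, functions or sequences. For the same reason tissue and cell type markers could not be read from the list.

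By the rule, the members' signals were well above background at both stages, and they were lower at 2 mm. The median level of the 200 probes was 2.10 at 1 mm (quartiles 0.57 and 3.55) and -0.48 at 2 mm (quartiles -1.78 and 1.19). A signal depends on the probe as well as on the transcript, so levels are compared between samples of a probe and not between probes. In units of the scanner, the median processed signal of the 200 probes was 2017 at 1 mm and 308 at 2 mm, whereas the median over all 28295 probes was 450 and 419. No spot of these probes was marked as saturated, or as an outlier for uneven signal within the spot, in any sample. Other outlier marks were not read.

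**Figure D1:**
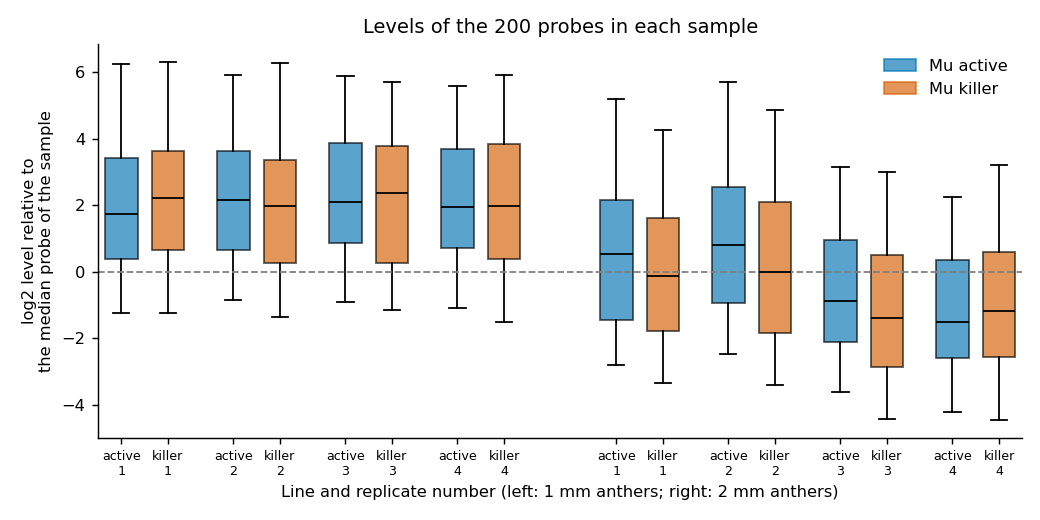
Levels of the 200 probes in each of the 16 samples, as log2 relative to the median probe of the sample (vertical axis), by stage, replicate and line (horizontal axis). Boxes span the quartiles with the median as a line, and whiskers reach from the 5th to the 95th percentile; the medians at 1 mm lie between 1.74 and 2.36, and those at 2 mm between -1.51 and 0.80.

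The stage difference of the 200 probes had a median of -2.16 on the log2 scale, a 4.46-fold fall, with quartiles of -2.70 and -1.94. It ranged from -4.94, a 30.6-fold fall, to -1.83, a 3.56-fold fall. Of the 200 probes, 134 were at least 4-fold lower at 2 mm (0.474% of all probes tested, which are these 134 by the rule), 35 at least 8-fold and 5 at least 16-fold. Across all 28295 probes the median stage difference was 0.023, with quartiles of -0.40 and 0.45. The list has no natural edge. The last 3 probes inside it, TC306822, TC280343 and TC306397, and the first 3 outside, TC282690, TC310708 and CF051410, all had a stage difference of -1.83 after rounding. A further 123 probes fell at least as far as the last member but were not well above background in all 16 samples, and so were not eligible.

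TC313699 (probe A_92_P041540) had the largest fall by the rule. Its level at 1 mm ranged from 2.11 to 3.47 with a median of 2.89, and at 2 mm from -5.25 to 0.50 with a median of -1.50. All 8 samples of 2 mm anthers were below all 8 of 1 mm anthers, but they were far apart from each other: both colors of replicates 1 and 2 were between -0.26 and 0.50, and both colors of replicates 3 and 4 between -5.25 and -2.73. The stage difference was -4.94, with an SD over the 8 samples of 0.50 at 1 mm and 2.30 at 2 mm. This difference depended on the processing. It was -2.97 with normexp background correction and quantile normalization, and -2.69 with the authors' deposited intensities. TC314183, described next, was at -4.16 and -4.52 under these settings.

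TC314183 (A_92_P035423) came next, and had a strong signal at 1 mm. Its 8 samples there ranged from 7.94 to 9.93 with a median of 9.10. At 2 mm they ranged from 0.94 to 7.37 with a median of 4.91. The stages did not overlap, and the 4 lowest values at 2 mm, 0.94, 2.61, 2.95 and 4.53, were again those of replicates 3 and 4. Its fall was 22.1-fold.

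TC307051 was measured by a pair of member probes, which ranked next. Probe A_92_P032791 had levels between 3.08 and 6.01 at 1 mm (median 4.34) and between -2.62 and 2.89 at 2 mm (median 0.73). Probe A_92_P032314 had levels between -0.28 and 3.11 at 1 mm and between -5.25 and -0.0092 at 2 mm (median -2.62). The falls were 17.97-fold and 18.2-fold, and in both probes the highest 2 mm sample was *Mu* active replicate 1. That sample was below every 1 mm sample for the first of these probes and above the lowest 1 mm sample, *Mu killer* replicate 2, for the other. With normexp and quantile normalization the stage difference was -3.54 for A_92_P032791 and -2.32 for A_92_P032314. With the deposited intensities it was -3.40 and -2.09.

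TC291934 (A_92_P009793) had steady levels at 1 mm, from 2.29 to 3.50 with a median of 2.98. At 2 mm it ranged from -2.85 to 1.81 with a median of -1.79, and every 2 mm sample was below every 1 mm sample. The highest was *Mu* active replicate 2, at 1.81, and the next was *Mu killer* replicate 1, at 0.52. Its fall was 16.3-fold, the smallest of the 5 that reached 16-fold.

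BM501035 (A_92_P031158), the next in order, differed from the others of the first 10 in that its stages overlapped widely. At 1 mm it ranged from 1.67 to 5.89 with a median of 4.61. At 2 mm the *Mu* active samples of replicates 1 and 2 were at 5.33 and 4.37 and the *Mu killer* samples of the same arrays at 2.04 and 1.97, whereas the 4 samples of replicates 3 and 4 were between -3.57 and -1.47. Its mean fall of 15.98-fold, SD 3.64 at 2 mm, rested on the arrays of replicates 3 and 4.

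Of the other 4 among the first 10, BI359392 (A_92_P008986) went from levels between 1.50 and 2.99 at 1 mm to levels between -2.61 and -0.033 at 2 mm, a 13.5-fold fall. TC300108 (A_92_P034208) went from between 5.44 and 7.39 to between 0.46 and 4.65, a 13.4-fold fall. TC282010 (A_92_P004698) went from between 1.50 and 3.17 to between -3.12 and 0.60, a 12.4-fold fall. In each of these the stages did not overlap. TC313390 (A_92_P029165) went from between 4.14 and 7.19 at 1 mm to between 0.53 and 4.64 at 2 mm, a 13.1-fold fall. Here 1 sample, *Mu* active replicate 2 at 2 mm, was above the lowest 1 mm sample, *Mu* active replicate 4.

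**Figure D2:**
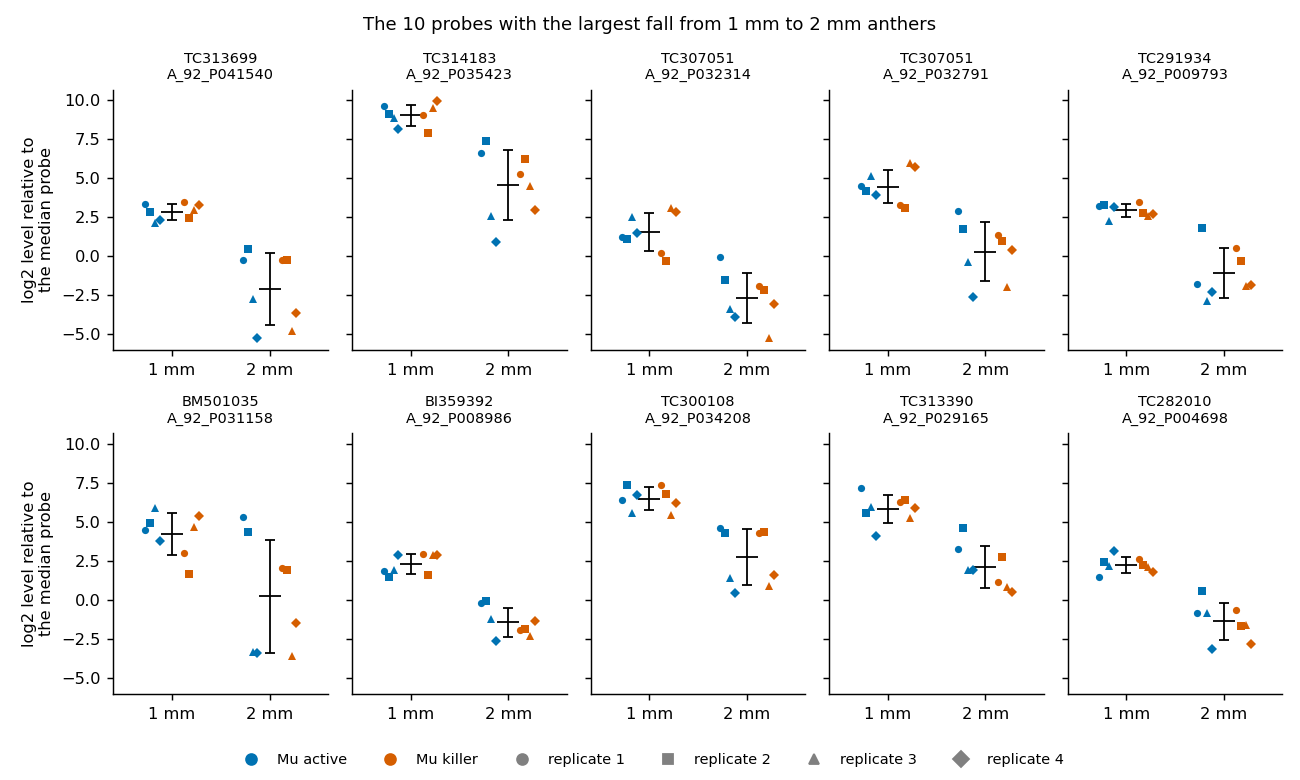
Levels of the 10 probes with the largest fall, as log2 relative to the median probe (vertical axis), in 1 mm and 2 mm anthers (horizontal axis), with color for the line and marker shape for the replicate. Bars give the mean and SD of the 8 samples of a stage; in TC313699 the 2 mm samples span -5.25 to 0.50, and in BM501035 those of replicates 1 and 2 reach the range of the 1 mm samples.

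For 90 of the 200 probes all 8 samples of 2 mm anthers were below all 8 of 1 mm anthers. Over all 28295 probes tested 1.88% had this pattern, but the rule used the same values, so nothing is read from the excess. A probe could enter the list with 1 array at 2 mm far below the rest, so the arrays below every 1 mm sample were counted. This count depends on the lowest 1 mm sample and does not measure how far the 2 mm arrays lie apart. Both colors of an array were below every 1 mm sample on 4 of the 4 arrays at 2 mm for 90 probes, on 3 for 44, on 2 for 46, on 1 for 14 and on 0 for 6. By array, both colors were below every 1 mm sample for 125 probes on replicate 1 (12.8% of all probes tested), 116 on replicate 2 (14%), 182 on replicate 3 (9.92%) and 175 on replicate 4 (9.92%). For 47 probes the highest 2 mm sample was above the median of the 1 mm samples. Between the medians of the stages, in place of the means, the fall was less than 2-fold for 1 member, TC302610, at -0.80.

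The arrays of 2 mm anthers did not contribute alike. Against the mean of the 1 mm samples, the median difference of the 200 probes was -1.86 for replicate 1, -1.67 for replicate 2, -2.87 for replicate 3 and -2.98 for replicate 4. At least 4-fold lower were 75 probes on replicate 1, 75 on replicate 2, 172 on replicate 3 and 173 on replicate 4, where over all probes tested the shares were 0.523%, 0.813%, 1.51% and 1.84%. Replicates 3 and 4 thus carried the larger falls of these members, which the rule had chosen with the same values. At 1 mm no such difference between arrays was seen, and the median deviation of the 200 probes from the 1 mm mean lay between -0.030 and 0.042 on all 4 arrays.

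The same separation showed in single samples. In 2 mm anthers the median level of the 200 probes was 0.53 for *Mu* active and -0.14 for *Mu killer* of replicate 1, and 0.80 and -0.00062 in those of replicate 2. It was -0.90 and -1.39 in replicate 3, and -1.51 and -1.19 in replicate 4. The 4 samples of replicates 3 and 4 were therefore all below the 4 of replicates 1 and 2, and this held for 62 of the 200 probes taken singly, against 3.86% of all probes tested. The opposite order held for 2 members, TC299981 and TC312489 (picked out after their values were seen), against 4.45% of all probes. At 1 mm the same orders held for 7 members (2.85% of all probes tested) and 12 members (2.69%). The rule used these same values, so nothing is read from how these counts differ from the shares over all probes.

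The 200 probes that rose most into 2 mm anthers, chosen in the mirrored way, were also farthest from the 1 mm mean on the arrays of replicates 3 and 4, with median differences of 3.52 and 3.41 against 2.46 and 2.63 on those of replicates 1 and 2. The line in each color was exchanged between these pairs of arrays. The number of probes well above background at 2 mm ranged from 33632 to 36077 in replicates 1 and 2 and from 34615 to 36488 in replicates 3 and 4, so the counts overlapped. The part that dye orientation, anther stage or hybridization had in the separation was not tested. By color over all arrays, the median stage difference of the 200 probes was -2.45 in Cy3 and -2.15 in Cy5.

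The spread among samples of a stage was larger for these probes than for most. The SD over the 8 samples had a median of 0.72 at 1 mm and 0.95 at 2 mm, where that over all probes tested was 0.41 and 0.52. The SD was larger at 2 mm than at 1 mm for 154 of the 200 probes (77%) and for 73.2% of all probes, so in this respect the list was close to the rest. The spread is not independent of the rule.

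Members with a strong signal at 1 mm differed in how evenly they fell. TC282069 (A_92_P021887) ranged from 6.49 to 8.20 at 1 mm (median 6.98) and from 4.31 to 5.90 at 2 mm (median 5.17), with SDs of 0.55 and 0.48. Its fall of 4.18-fold was seen on every array, with no overlap between the stages. DN227504 (A_92_P024431) ranged from 5.98 to 7.73 at 1 mm (median 7.15) and from 2.93 to 5.95 at 2 mm (median 4.73), a 5.62-fold fall, again without overlap, although its highest 2 mm sample was within 0.1 of its lowest 1 mm sample.

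TC307958 (A_92_P034462) also had a strong signal at 1 mm, from 6.17 to 8.17 with a median of 7.46, but fell in some 2 mm samples only. Both colors of replicates 1 and 2 at 2 mm were between 6.93 and 7.69, within the range of the 1 mm samples. On replicate 3 the *Mu* active sample was at 3.86 and the *Mu killer* sample at -2.75, and on replicate 4 the *Mu* active sample was at -2.82 and the *Mu killer* sample at 5.51. Its mean fall was 9.86-fold with an SD of 4.44 at 2 mm, the largest SD of any member, whereas its median fell only from 7.46 to 6.22.

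TC295702 (A_92_P002180) ranged from 1.56 to 4.29 at 1 mm (median 3.49). At 2 mm the 4 samples of replicates 1 and 2 were between 2.52 and 6.25 and the 4 of replicates 3 and 4 between -4.02 and -1.11. TC302610 (A_92_P037611) ranged from -0.41 to 5.22 at 1 mm (median 4.50) and from -3.89 to 6.28 at 2 mm (median 3.70). Its low samples did not follow the arrays: at 2 mm they were both samples of replicate 4 and the *Mu killer* sample of replicate 1, while the other 5 samples were between 3.01 and 6.28. In TC307958, TC295702 and TC302610 the mean fall thus came from some samples or arrays and not from all.

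**Figure D3:**
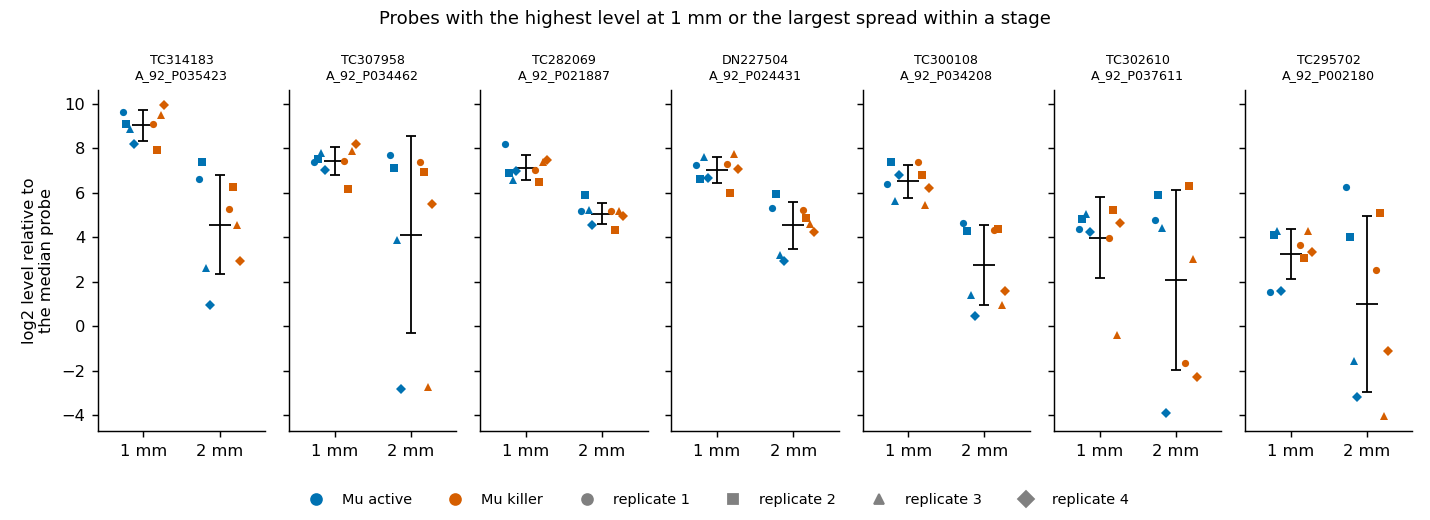
Levels of the 5 members with the strongest signal at 1 mm and of the 3 with the largest spread within a stage (7 probes, as TC307958 is both), as log2 relative to the median probe (vertical axis), at 1 mm and 2 mm (horizontal axis), with color for the line and marker shape for the replicate. Bars give the mean and SD of 8 samples; TC282069 falls evenly, whereas the 2 mm samples of TC307958 span -2.82 to 7.69.

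Both lines showed the fall. Within *Mu* active, the median stage difference of the 200 probes was -2.10, and 199 were at least 2-fold and 109 at least 4-fold lower at 2 mm, against 5.28% and 0.435% of all probes tested. Within *Mu killer* the median was -2.38, and 200 were at least 2-fold and 160 at least 4-fold lower, against 8.73% and 0.866%. The 1 probe under 2-fold in *Mu* active was TC297039 (picked out after its values were seen), at -0.84 in *Mu* active and -3.23 in *Mu killer*. Within a line, the 4 samples of 2 mm anthers were all below the 4 of 1 mm anthers for 128 probes in *Mu* active (6.33% of all probes tested) and 141 in *Mu killer* (9.2%). The rule averaged both lines over these same values, so nothing is read from the excess over all probes in either line.

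The fall was larger in *Mu killer* for 135 of the 200 probes (67.5%), and for 51.8% of all probes tested. Over all probes the stage differences were spread wider in *Mu killer* (quartiles -0.48 and 0.50) than in *Mu* active (-0.36 and 0.43). A list chosen by large falls draws more on the line with the wider spread, so nothing is read from this excess. Among the first 10, TC313390 differed most between the lines, at -2.78 in *Mu* active and -4.64 in *Mu killer*, and BI359392 was at -3.05 and -4.45. TC291934 went the other way, at -4.26 in *Mu* active and -3.78 in *Mu killer*. So did TC314183 (-4.57 and -4.36), BM501035 (-4.04 and -3.96) and TC300108 (-3.84 and -3.66). Whether the difference between the lines in such falls was larger than the error was asked by a model of the ratios within arrays.

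**Figure D4:**
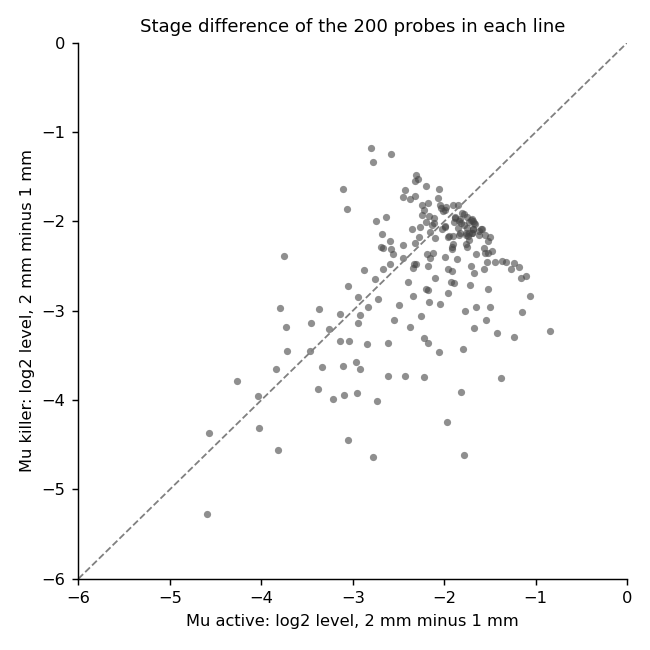
Stage difference (log2 level at 2 mm minus that at 1 mm) of each of the 200 probes in *Mu* active (horizontal axis) and in *Mu killer* (vertical axis), with 1 point per probe. The dashed line marks equal falls; 135 points lie below it, where the fall was larger in *Mu killer*.

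Ratios of *Mu killer* to *Mu* active were estimated with limma from background-corrected, loess-normalized ratios of each array, with a dye term, and p-values were adjusted by the Benjamini-Hochberg method over all 28295 probes. The offset used in background correction draws the ratios of dim probes toward 0. The mean of both lines chose the members, so the ratio between the lines was not used by the rule. With the wider spread of stage differences in *Mu killer*, the choice can still bear on this ratio. At 1 mm the median log2 ratio of the 200 probes was -0.13 (all probes tested, 0.0016). Ratios below 0 numbered 121 (60.5%), against 49.6% of all probes. None of the 200 passed an adjusted p of 0.05 in limma, the lowest adjusted p being 0.798, and 1 of all probes did (0.00353%). At an unadjusted p of 0.05, 18 of the 200 passed, where 5.34% of all probes did. Of the 18, 10 were lower in *Mu killer* (2.93% of all probes) and 8 higher (2.4%). With each array centred on its median in place of loess, 28 passed, 27 of them lower (4.59% of all probes passed in either direction). Left out in turn, the array of replicate 1 at 1 mm changed this most, with 41 of the 200 passing, 35 of them lower in *Mu killer* (7.98% of all probes).

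CD435402 (A_92_P040948) had the smallest p at 1 mm. Its level was 1.91, 1.59, 1.85 and 0.47 in *Mu* active replicates 1 to 4 and -1.93, -1.91, -0.14 and -0.068 in *Mu killer*, so the lines did not overlap. At 2 mm its highest sample was at 0.15 in *Mu* active and at -1.67 in *Mu killer*. The log2 ratio at 1 mm was -1.75 (SE 0.391, lower on 4 of 4 arrays, adjusted p = 0.798 from limma), and the fall was larger in *Mu* active, at -2.78, than in *Mu killer*, at -1.33. TC301447 (A_92_P033832) had a ratio of -0.74 (SE 0.231, adjusted p = 0.798 from limma) and TC293467 (A_92_P020759), which was higher in *Mu killer* on 4 of 4 arrays, 0.61 (SE 0.193, adjusted p = 0.798 from limma). None of these 3 passed the adjusted threshold.

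At 2 mm, as at 1 mm, the members leaned to lower levels in *Mu killer*. The median log2 ratio of the 200 probes was -0.16 (all probes tested, -0.0090), and 144 ratios (72%) were below 0, against 51.4% of all probes. Again 0 of the 200 passed an adjusted p of 0.05 in limma, with a lowest adjusted p of 0.306, and 1 of all probes did (0.00353%). At an unadjusted p of 0.05, 20 of the 200 passed (15.4% of all probes). Of these, 19 were lower in *Mu killer* (6.54% of all probes) and 1, TC298187 (picked out after its values were seen), was higher (8.87% of all probes). The ratio was below 0 on 4 of 4 arrays for 38 probes, against 11.5% of all probes, and above 0 on 4 of 4 for 1 probe, TC280941 (picked out after its values were seen), against 12.8%. At 1 mm these counts were 6 (6.77% of all probes) and 4 (7.57%), the 4 being TC293467, TC288392, BQ779020 and TC303398.

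The size of this lean depended on the array and on the processing. The median log2 ratio of the 200 probes on the arrays of replicates 1 to 4 at 2 mm was -0.13, -0.39, -0.038 and 0.060, so it was below 0 on 3 of 4 arrays and past -0.2 on that of replicate 2 only. At 1 mm it was 0.23, -0.21, -0.14 and -0.21. With the scanner software's own log ratio, which has no offset, the median at 2 mm was -0.48 and 48 probes passed an unadjusted p of 0.05, 46 of them lower in *Mu killer* (21.4% of all probes passed), with 0 after adjustment in limma. Without the 2 mm array of replicate 3, 4066 of all probes passed the adjusted threshold in limma (14.4%). The 5 members among them, all lower in *Mu killer* and picked out after their values were seen, were TC310318, TC283630, TC295508, TC287734 and TC306397.

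TC310318 (A_92_P036136) had the smallest p at 2 mm and was among the 3 smallest for the change of the ratio between the stages. At 1 mm its level was 7.26, 5.68, 7.63 and 5.89 in *Mu* active replicates 1 to 4 and 5.97, 6.26, 6.39 and 6.41 in *Mu killer*. At 2 mm it was 5.63, 7.01, 3.65 and 3.01 in *Mu* active and 3.64, 3.95, 2.04 and 1.69 in *Mu killer*. The lines overlapped at 1 mm, and at 2 mm *Mu killer* was lower than *Mu* active on each of the 4 arrays. The log2 ratio was -0.38 (SE 0.416) in the shorter anthers. In the longer anthers the ratio was -1.98 (SE 0.416, adjusted p = 0.306 from limma), and it changed by -1.60 (SE 0.588, adjusted p = 1.00 from limma). Without the 2 mm array of replicate 3 the ratio at 2 mm was -2.13, with a larger SE (0.517, adjusted p = 0.0456 from limma). In that fit 14.4% of all probes passed the adjusted threshold, against 0.00353% with all arrays.

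TC307306 (A_92_P010514) had the narrowest spread at 1 mm of the members named here, from 3.09 to 3.71 in the 8 samples, and at 2 mm was at 1.78, 2.44, 1.98 and 1.68 in *Mu* active and 1.13, 1.52, 1.09 and 1.01 in *Mu killer*. The lines did not overlap at 2 mm, and the log2 ratio there was -0.52 (SE 0.121, adjusted p = 0.306 from limma). TC314200 (A_92_P036531) was at 3.50, 3.97, 3.14 and 2.54 in *Mu* active and 2.32, 2.92, 1.25 and 2.16 in *Mu killer* at 2 mm, with a ratio of -1.06 (SE 0.263, adjusted p = 0.306 from limma). Both had a ratio below 0 on 4 of 4 arrays, and neither passed the adjusted threshold.

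For the change of the ratio from 1 mm to 2 mm, the median over the 200 probes was -0.099 (all probes tested, 0.0092). It turned to 0.059 without the 1 mm array of replicate 1 and to 0.039 without the 2 mm array of replicate 2, so its direction rested on these arrays. An unadjusted p of 0.05 was passed by 8 probes (1.99% of all probes), 6 toward lower (1.16%) and 2 toward higher levels in *Mu killer* (0.831%), and by 0 after adjustment in limma, with a lowest adjusted p of 1.00 and 0 calls among all probes. Beside TC310318, the smallest p were those of AI901790 (A_92_P038537), with a change of -0.53 (SE 0.172), and TC288392 (A_92_P001772), with -1.06 (SE 0.406). AI901790 went from levels between -0.68 and 1.18 at 1 mm to between -2.27 and -1.13 at 2 mm, without overlap. In TC288392 the *Mu killer* sample of replicate 3 at 2 mm was at -3.60, and the other 7 samples of 2 mm anthers were between -0.33 and 3.51. That the lines fell by different amounts was therefore not shown for any member.

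**Figure D5:**
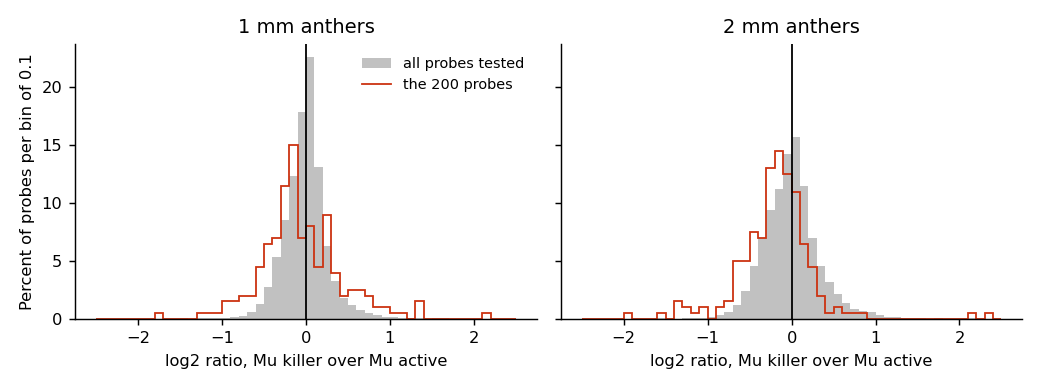
Distribution of the log2 ratio between the lines, *Mu killer* over *Mu* active (horizontal axis), in 1 mm and 2 mm anthers, as the percent of probes per bin (vertical axis), for the 200 probes (line) and for all 28295 probes tested (filled). The median of the 200 probes is -0.13 in the 1 mm panel and -0.16 in the 2 mm panel, and the median of all probes 0.0016 and -0.0090.

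The array held 19 other probes to the members' transcripts, and 12 of them passed the background filter in all 16 samples. These 12 were ranked by the same rule and lay outside its limit of 200, so that each had a higher stage difference than any member by construction, and their values are given as a description. Their median stage difference was -0.90 (all probes tested, 0.023). Of the 12, 11 were lower at 2 mm, 5 of them at least 2-fold. Over all probes, 5.28% were at least 2-fold lower within *Mu* active and 8.73% within *Mu killer*. In TC300557 the stage difference was -1.71 for the other probe and -2.39 for the member, and in TC281993 it was -0.27 and -3.17. The 1 that was higher at 2 mm was the other probe of TC298384, at 1.87, where the member was at -1.86.

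TC283655 had 2 member probes as well, A_92_P033346 and A_92_P037498. The first ranged from 0.37 to 2.57 at 1 mm and from -1.70 to -0.30 at 2 mm, and the second from 0.64 to 2.98 and from -1.10 to 0.29. In both, the stages did not overlap, the highest 1 mm sample was *Mu* active replicate 4, and the falls were 4.10-fold and 3.72-fold. The falls depended on the processing. Their stage differences were -1.10 and -1.12 with normexp and quantile normalization, and -0.97 and -1.02 with the deposited intensities. By color they were -2.76 and -2.71 in Cy3, and -1.31 and -1.08 in Cy5. Probes of a transcript share their target and are not independent measures of it.

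The array output gives a few probes the names of meiotic genes. They are AM1, which maize needs to enter meiosis, the cohesin genes ZmSMC1, ZmSMC3 and ZmRAD21, whose products hold sister chromatids together, and ZmSGO1, a protector of cohesin at centromeres. Of these 17 probes, 13 passed the background filter in all 16 samples, and 0 were among the 200. The list holds 200 of the 28295 probes tested, so with 13 probes nothing is read from this. Of the 13, 8 were lower at 2 mm, where the median stage difference of all probes was 0.023. Stage differences of the 13 lay between -1.09, for a ZmSMC1 probe, and 0.46, for a ZmRAD21 probe. The next largest falls were -0.98, for another ZmSMC1 probe, and -0.89, for an AM1 probe. As probes outside the list, they could not lie below its limit.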

How the data were processed

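The 16 samples were read from the deposited scanner output, which the authors made with Agilent Feature Extraction 9.5.3.1: mean intensity and local background of each spot by color, the background-subtracted and dye-normalized processed signal, the mark for being well above background (2.6 SD), and the log10 ratio of the colors (Cy5 over Cy3). Each sample was read in its own color. Control spots (1264 positive, 153 negative) were left out. A further deposited table holds the authors' normalized intensity by color, whose steps are not given in the sources used here. Its columns matched the scanner values best in the mirrored replicate (1 with 4, 2 with 3) and the other color of the same stage and line, with correlations of log2 intensity across probes from 0.966 to 0.974, so it served as an alternative only.

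Ratios between the lines were fitted with limma 3.58.1 in R 4.3.3 on mean intensities, after normexp with an offset of 50 and loess within arrays, with a coefficient for each stage and a dye term. A call was an adjusted p under 0.05. The fit was tested on simulated data. Levels were computed with Python 3.11.15, numpy 2.4.6 and pandas 2.3.3 and plotted with matplotlib 3.10.9.

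The members and lists were chosen with earlier results of these data known. Named are the 10 largest falls, the 3 probes on each side of the limit, the 5 strongest signals at 1 mm, the 3 smallest p per comparison of the lines, the 3 largest SDs within a stage and transcripts with 2 member probes. Lists of words for gene functions could not be used, since no descriptions were present. Replicates are biological, per the methods, and p-values measure the spread between these samples. Alternatives covered scaling, background correction, normalization, the deposited table, color, line, the filter, the dye term, the replicate block and leaving out each array.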

Additional observations from a re-analysis of the deposited data

Results flagged for a closer look

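Dixon's test for a sample far from the others of its stage was run on 64 groups of 8 samples, of the named probes and of the median of the 200, and chance alone gives about 1 in 20 such groups. It picked out 3 samples, all of *Mu killer* at 1 mm. In replicate 2, TC307306 was at a level of 3.09, where the other 7 samples of 1 mm anthers were between 3.47 and 3.71, and TC314200 was at 3.81, where the others were between 4.98 and 5.96. In replicate 3, TC302610 was at -0.41, where the others were between 3.97 and 5.22, and its 2 mm samples spanned -3.89 to 6.28. No cause was tested for these values.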

How the results depend on the processing

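The median stage difference was negative under every setting run. The 200 probes were chosen for their fall in these same samples, so its sign was set in advance and nothing is read from it. Which probes made the list was not stable. The median stage difference was -1.61 with normexp and quantile normalization and -1.46 with the deposited intensities. By dye orientation, an alternative chosen after seeing the data, it was -2.93 on the arrays of replicates 3 and 4 and -1.78 on those of replicates 1 and 2. Leaving out 1 array at a time gave -2.53 to -2.02. A list of 200 made anew shared 118 probes with normexp and quantile normalization, 109 with the deposited intensities, 122 when 8 samples well above background sufficed, 133 with medians of the samples in place of means (chosen after seeing the data), and 151 to 174 without 1 array. Stages did not overlap for 92 to 111 members without 1 array, and for 2.11% to 3.07% of all probes.

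At an unadjusted p of 0.05, the line difference at 1 mm was passed by 11 of the 200 members with an offset of 0 (3.88% of all probes), 28 with median centring (4.59%) and 8 with the scanner log ratio (5.45%). Without 1 array it was 11 to 41, and 3.05% to 10.8% of all probes. At 2 mm it was 36 with an offset of 0 (18.3% of all probes) and 48 with the scanner log ratio (21.4%). Without 1 array it was 11 to 25, and 6.77% to 35.1% of all probes, the 25 standing beside the 35.1%, without the 2 mm array of replicate 3. For the change of the ratio it was 5 to 11, and 1.18% to 12.05% of all probes. The fewest at 2 mm and for the change, 11 and 5, came without the 2 mm array of replicate 1, and the fewest at 1 mm, 11, without the 1 mm array of replicate 2 or of replicate 3. With median centring the median ratio of all probes moved to -0.12 (1 mm) and -0.16 (2 mm), and the members' median to -0.35 at both stages. The median change of the ratio turned above 0, to 0.059 and 0.039, without the 1 mm array of replicate 1 or the 2 mm array of replicate 2. The causes were not tested.

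With the replicate number as a block the counts were 17, 20 and 7 (6.37%, 14.4% and 1.83% of all probes). No member passed the adjusted threshold, as without the block. The median stage difference of -2.16 cannot move with this block, since each number has equally many samples at both stages. In their line ratios, as deviations from the stage mean, same-numbered arrays of the stages correlated at 0.016, -0.29, -0.21 and 0.34. With so few arrays this cannot tell whether the numbers pair samples. The codes in the sample titles run alike at both stages, so pairing was not settled. Of 403 values of named probes under alternatives, all were negative and 27 moved by more than the replicate SD. The named probes were members or lay just outside the limit, so nothing is read from the sign.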
